A study of Penicillium oxalicum with 18 samples.

Results

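The vib1 deletion strain of Penicillium oxalicum, a filamentous fungus that secretes plant cell wall degrading enzymes, was compared between 2 sugars. The comparison rests on 6 of the 18 libraries of the series, chosen by their labels: 3 from vib1 deletion mycelia on 2% N-acetylglucosamine (GlcNAc) and 3 from vib1 deletion mycelia on 2% glucose. All 6 carry the deletion. For setting, 3 wild-type (strain 114-2) libraries in GlcNAc, 3 wild-type libraries in glucose, and 3 libraries of each strain on 1% bran plus 1% microcrystalline cellulose were used. The labels' protocols give a preculture of 24 h at 30 °C in modified Vogel's medium holding 2% glucose, followed by 24 h in modified Mendal's medium with the carbon source of the group. GlcNAc is named as carbon source in the treatment labels only, not in the growth protocol. Nothing states whether replicates were separate cultures, so p-values measure the spread between these libraries, which may be technical.

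Vib1 belongs to the p53-like family of transcription factors with an Ndt80 DNA-binding domain, and in Neurospora it is known to act in heterokaryon incompatibility, in protease secretion and in the use of cellulose. GlcNAc is the monomer of chitin, a polymer of the fungal cell wall. Fungi that live on GlcNAc take it up, phosphorylate it, remove its acetyl group and its amino group, and feed the resulting fructose 6-phosphate into glycolysis, so that the sugar supplies both carbon and nitrogen, with acetate as a by-product. Glucose has no acetyl or amino group to remove, and it represses many genes for other carbon sources.

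Expression was given for 9176 gene models as FPKM, a read count set in relation to gene length and library size. Their IDs are not paired with gene names in the table, and 0 of them matched the reference gene list used here, so roles cannot be given, genes stand under their IDs, and the vib1 gene itself was not looked up: the strain labels have no check from it. Read depth is unknown, because the low values showed no steps of whole reads: 22.4% of 6411 of them fell within 0.1 of such a step, and an even spread would give 20%. Summed FPKM ran from 915811 to 945944 in the 6 libraries, where 762 to 860 gene models were listed at 0. An exact 0 can be a failed estimate: in these 6 libraries 161 zeros stood beside a replicate above 10 FPKM. For a gene listed at 0 in a whole group, values and p but no fold are therefore given. Where a gene was above 0 in a single group only, values alone are given. Replicates had Spearman correlations of 0.974 to 0.988 across gene models, against 0.818 to 0.832 between a GlcNAc and a glucose library of the deletion strain. Replicate 1 of the deletion strain in glucose had the widest residual spread of the 6, 0.36 log2 units (0.25 to 0.30 in the other 5).

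GlcNAc in place of glucose changed most of the gene models that could be tested in the deletion strain. On the scale of log2(FPKM + 1), with limma over all 18 libraries and Benjamini-Hochberg adjustment, 5811 of 8455 gene models tested (68.7%) were called at an adjusted p under 0.05, 3530 (41.8%) of them higher and 2281 (27.0%) lower in GlcNAc. By at least 1 log2 unit, 1145 (13.5%) rose and 1218 (14.4%) fell, together 2363 (27.9%). All 3 GlcNAc libraries lay above all 3 glucose libraries for 3694 (43.7%) and below them for 2372 (28.1%). At 4 log2 units the counts were 127 higher and 155 lower, and at 6 log2 units 40 and 44. The median gene model lay 0.17 log2 units higher in GlcNAc. Rescaling by median ratios brought that to 0.05, with 3067 called higher and 2641 lower, and 973 and 1324 at 1 log2 unit.

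Shares by expression level, taken as the mean over all 18 libraries (the compared ones included), were highest in the top class and did not climb steadily. Of the 156 gene models at 1000 FPKM or more, 58 (37.2%) rose and 40 (25.6%) fell by at least 1 log2 unit. Between 100 and 1000 FPKM these shares were 16.9% and 18.4%, between 10 and 100 FPKM 11.02% and 12.3%, and below 10 FPKM 15.6% and 15.9%. The scale understates differences of low genes. The median size of the difference, in either direction, was 1.41 log2 units in the top class, and 0.63, 0.51 and 0.69 in the classes below it in falling order of level.

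A pair of gene models with consecutive IDs carried the largest gain in FPKM. PDE_09832 stood at 92946, 93938 and 77644 FPKM in GlcNAc, against 651, 1351 and 3015 FPKM in glucose. It was the most abundant transcript of every library of the series except those of the deletion strain in glucose. In the deletion strain it held 8.43% to 9.93% of the summed FPKM in GlcNAc, against 0.0690% to 0.329% in glucose. The groups lay far apart, and the 3 glucose libraries were themselves unequal. The log2 difference was 5.99 ± 0.351 (SE; limma adjusted p = 8.73e-10). PDE_09831 stood at 37823, 40547 and 35063 FPKM in GlcNAc, against 346, 686 and 1303 FPKM in glucose (log2 difference 5.80 ± 0.304, adjusted p = 2.4e-10). Its glucose values followed the same order over the 3 libraries as those of PDE_09832. In wild type PDE_09832 averaged 93022 ± 6520 FPKM in GlcNAc and 60401 ± 4792 FPKM in glucose (SD, n = 3 each), with no overlap between the media. This wild-type difference of 0.62 log2 units was not called in the fit to all 18 libraries (SE 0.351, limma adjusted p = 0.142), whose SE is shared with the unequal deletion libraries in glucose. Fitted to the wild-type GlcNAc and glucose libraries alone it was called (SE 0.0798, adjusted p = 0.000583), as was that of PDE_09831 (adjusted p = 0.0007, against 0.128 with all 18). The vib1 deletion in glucose was thus the group with the low values. The 10 most abundant gene models of a library held 18.4% to 20.2% of the summed FPKM in GlcNAc, against 10.4% to 12.1% in glucose, in the deletion strain.

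The other gene models that rose most were close to 0 in glucose. PDE_03475 stood at 1954, 1773 and 1122 FPKM in GlcNAc, against 0.52, 0.17 and 0.45 FPKM in glucose. It had the largest log2 difference of the gene models that rose, 10.16 ± 0.817 (SE; limma adjusted p = 4.75e-08). Outside the deletion strain in GlcNAc it was at most 29.7 FPKM in all libraries but the third wild-type library on bran plus cellulose, with 143 FPKM. Wild-type libraries averaged 24.1 ± 5.02 FPKM in GlcNAc and 6.42 ± 3.22 FPKM in glucose (SD, n = 3 each), a difference that was not called with all 18 libraries (limma adjusted p = 0.0685) and was called with the wild-type sugar libraries alone (adjusted p = 0.00243). Between the strains the response was 8.34 ± 1.16 log2 units apart (SE; limma adjusted p = 2.33e-05).

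PDE_04495 showed another course. It stood at 1270, 1099 and 1103 FPKM in the deletion strain in GlcNAc, against 0.91, 0.14 and 0.43 FPKM in glucose (log2 difference 9.63 ± 0.158, SE; limma adjusted p = 3.73e-16). All 12 libraries outside those of the deletion strain on the sugars lay between 1092 and 2230 FPKM, a range that holds its 3 GlcNAc values of the deletion strain. PDE_09452 stood at 583, 531 and 531 FPKM in GlcNAc, against 0.17, 0.32 and 0.89 FPKM in glucose (8.58 ± 0.16, adjusted p = 1.39e-15). The wild-type mean was 1459 ± 64.8 FPKM in GlcNAc and 714 ± 73.1 FPKM in glucose (SD, n = 3 each). PDE_02128 stood at 902, 920 and 921 FPKM in GlcNAc, against 1.15, 1.09 and 2.71 FPKM in glucose (8.48 ± 0.179, adjusted p = 5.94e-15). In wild type this gene fell: it averaged 687 ± 85.6 FPKM in GlcNAc and 1452 ± 79.9 FPKM in glucose (SD, n = 3 each; log2 difference −1.09 ± 0.179, limma adjusted p = 0.000109). Its response differed most between the strains among the gene models that rose, by 9.57 ± 0.254 log2 units (limma adjusted p = 2.18e-13).

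Among the gene models that fell, some were near or at 0 in GlcNAc and among the abundant ones in glucose. PDE_06813 stood at 0.12, 0.29 and 0.13 FPKM in GlcNAc, against 4649, 3969 and 4048 FPKM in glucose (log2 difference −11.80 ± 0.425, SE; limma adjusted p = 5.31e-12). It fell in wild type as well, at lower levels: 1.13 ± 0.663 FPKM in GlcNAc and 59.6 ± 22.4 FPKM in glucose (SD, n = 3 each; −4.81 ± 0.425, adjusted p = 2.94e-07). PDE_06802 was listed at 0 in the 3 GlcNAc libraries and stood at 3858, 3379 and 2590 FPKM in glucose (adjusted p = 1.55e-12). Wild type averaged 330 ± 63.2 FPKM in GlcNAc and 608 ± 52.8 FPKM in glucose, a difference that was not called with all 18 libraries (limma adjusted p = 0.056) and was called with the wild-type sugar libraries alone (adjusted p = 0.00203). PDE_02095 was likewise listed at 0 in the 3 GlcNAc libraries, against 379, 319 and 341 FPKM in glucose (adjusted p = 2.39e-08). Its wild-type mean was 2218 ± 261 FPKM in GlcNAc and 782 ± 120 FPKM in glucose, with the opposite sign. It was not called with all 18 libraries (limma adjusted p = 0.0555), among which the wild-type values on bran plus cellulose ran from 200.1 to 2939 FPKM. With the wild-type sugar libraries alone it was called (adjusted p = 0.0001). Both genes were above 0 in all 15 libraries outside the deletion strain in GlcNAc.

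The largest losses in FPKM were those of PDE_00509 and PDE_09377. PDE_00509 stood at 252, 297 and 331 FPKM in GlcNAc, against 12560, 16107 and 17061 FPKM in glucose (log2 difference −5.69 ± 0.236, SE; limma adjusted p = 1.73e-11). Wild type fell less, averaging 5754 ± 477 FPKM in GlcNAc and 12073 ± 426 FPKM in glucose (SD, n = 3 each), and the responses differed by −4.62 ± 0.334 log2 units (adjusted p = 1.92e-08). PDE_09377 stood at 626, 644 and 601 FPKM in GlcNAc, against 13692, 16362 and 16328 FPKM in glucose (−4.62 ± 0.2, adjusted p = 2.78e-11). PDE_09166, the most abundant transcript of each deletion library in glucose, fell by less. It stood at 9676, 10321 and 9236 FPKM in GlcNAc, against 16926, 18427 and 23388 FPKM in glucose (−0.99 ± 0.118, adjusted p = 2.34e-06).

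**Figure D1:**
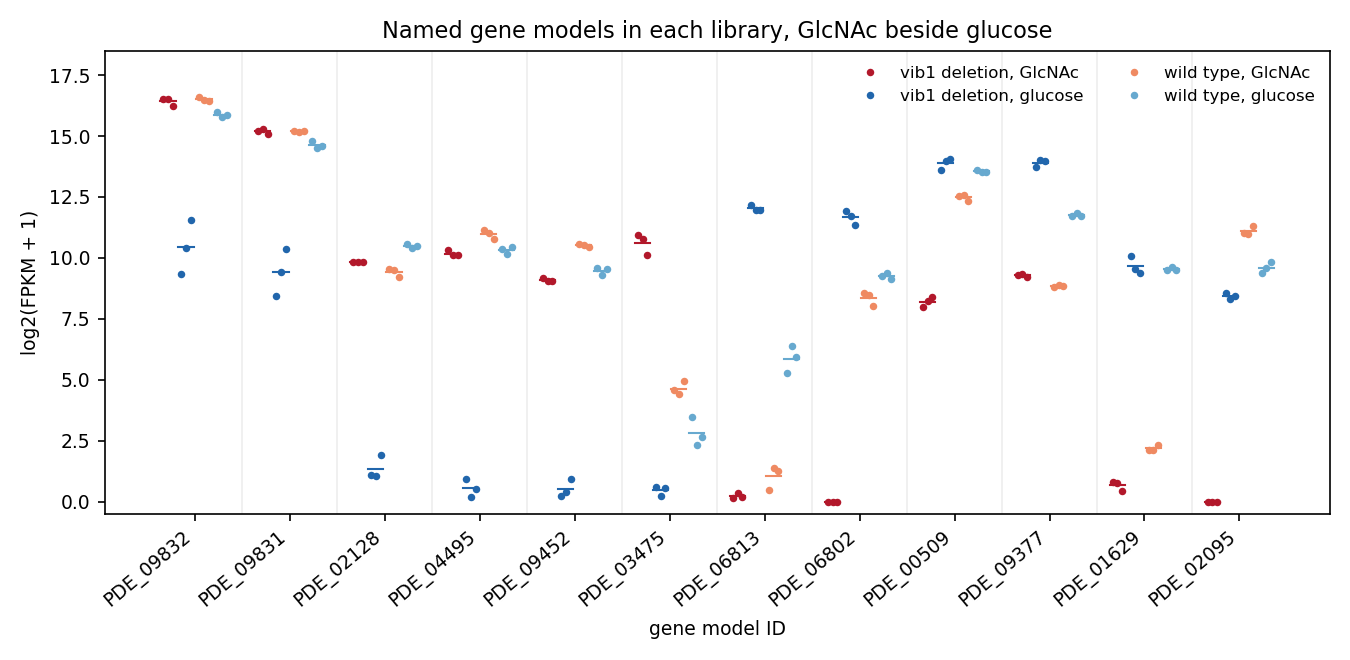
Level of 12 named gene models as log2(FPKM + 1) in each library; points are libraries, short lines group means (n = 3). Within each gene the order is vib1 deletion in GlcNAc, vib1 deletion in glucose, wild type in GlcNAc, wild type in glucose. PDE_02128, PDE_04495, PDE_09452 and PDE_03475 lie below 3 FPKM in glucose in the deletion strain, while PDE_06802 and PDE_02095 lie at 0 in the deletion strain in GlcNAc.

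Gene models that changed by at least 1 log2 unit also came in runs of consecutive ID numbers. Runs of 5 or more IDs that all rose numbered 5 (48 IDs) and runs of IDs that all fell numbered 6 (53 IDs). The runs were picked from this contrast, so their differences are a description. Whether consecutive numbers lie side by side in the genome was not looked up.

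The longest run held 23 IDs, PDE_00789 to PDE_00811. The median FPKM of the 23 was 54.9, 55.1 and 57.3 in the deletion libraries in GlcNAc, against 0.09, 0.13 and 0.31 in glucose. Every library in GlcNAc had all 23 above 5 FPKM, and no library in glucose had any above 5.34 FPKM. PDE_00811 was the member with the largest difference, at 222, 213 and 203 FPKM in GlcNAc, against 0.48, 0.44 and 0.44 FPKM in glucose. PDE_00794 kept the highest level in glucose, at 178, 173 and 182 FPKM in GlcNAc, against 5.19, 5.2 and 5.34 FPKM in glucose.

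Wild type expressed this run in both media. Its median FPKM was 218, 215 and 204 in wild type in GlcNAc, against 228, 185 and 214 in glucose. In wild type 8 of the 23 were called higher in GlcNAc, 1 lower, and 14 were not called, where 33.0% of all gene models tested were called higher. In GlcNAc 22 of the 23 were called lower in the deletion strain than in wild type, and in glucose all 23 were. The share of all gene models called lower between the strains is not given here, so these counts have no background to be read against. PDE_00811 averaged 212 FPKM in wild type in GlcNAc and 214 FPKM in wild type in glucose, close to its level in the deletion strain in GlcNAc. PDE_00788, before the run, fell: it stood at 0.87, 1.01 and 2.66 FPKM in GlcNAc, against 3.57, 6.53 and 3.8 FPKM in glucose (log2 difference −1.20 ± 0.259, SE; limma adjusted p = 0.000771). PDE_00812, after the run, was listed at 0 in all 6 libraries. PDE_00813, separated from the run by PDE_00812, also rose in the deletion strain. It stood at 19.6, 17.17 and 20.25 FPKM in GlcNAc, against 5.93, 4.74 and 4.85 FPKM in glucose.

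**Figure D2:**
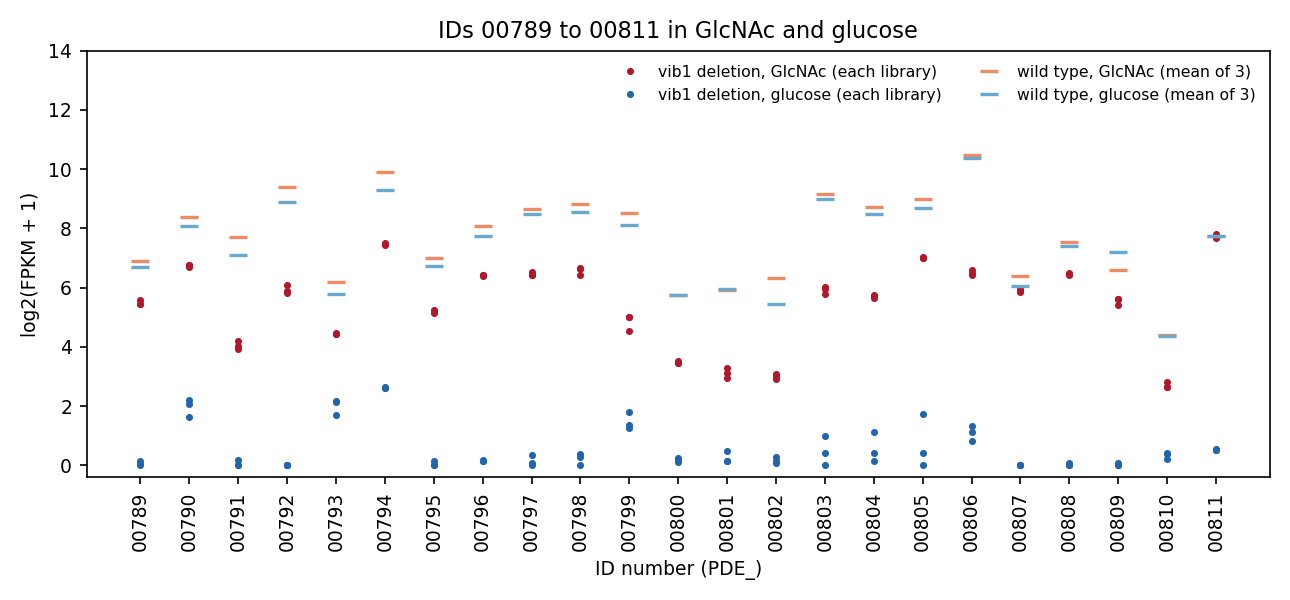
Level of the 23 consecutive IDs PDE_00789 to PDE_00811 as log2(FPKM + 1). Points are the 3 libraries of the vib1 deletion in GlcNAc and in glucose, and dashes are wild-type means (n = 3). All 23 IDs are higher in GlcNAc than in glucose in the deletion strain, and wild type is well above 0 in both media.

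A second run held 10 IDs, PDE_10001 to PDE_10010. Its median FPKM was 110.9, 106.6 and 97.4 in the deletion libraries in GlcNAc, against 0.13, 0.11 and 0.19 in glucose. In wild type the medians were 274, 267 and 236 FPKM in GlcNAc, against 191, 155 and 181 FPKM in glucose, and 8 of the 10 were called higher in GlcNAc, by at most 0.97 log2 units, where 33.0% of all gene models tested were called higher. PDE_10009, the member with the highest wild-type level, stood at 200.2, 205 and 195 FPKM in the deletion strain in GlcNAc, against 0.13, 0 and 0.13 FPKM in glucose. PDE_09999, separated from the run by PDE_10000, also rose, with 204, 182 and 176 FPKM in GlcNAc, against 0.06, 0.06 and 0.19 FPKM in glucose. PDE_10000 was at 0 in 5 of these 6 libraries.

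In the other direction, 15 IDs from PDE_09227 to PDE_09241 fell. Their median FPKM was 0.4, 0.16 and 0.45 in the deletion libraries in GlcNAc, against 41.8, 1151 and 1285 in glucose. Replicate 1 in glucose stood far below the other 2 glucose libraries, and still above the GlcNAc libraries except at PDE_09228. PDE_09239 stood at 0.4, 0.84 and 1.89 FPKM in GlcNAc, against 198, 3746 and 4144 FPKM in glucose. PDE_09228 overlapped, at 4.13, 4.2 and 4.35 FPKM in GlcNAc, against 3.86, 833 and 1091 FPKM in glucose. All 15 were called, with a highest limma adjusted p of 0.00472. Without replicate 1 of the deletion strain in glucose, all 15 were called with a highest adjusted p of 2.11e-07, and their median log2 difference was −9.83 in place of −8.16.

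Wild type lowered the same 15 IDs. The median FPKM was 133, 152 and 95.9 in wild type in GlcNAc, against 2012, 2234 and 2603 in glucose. All 15 were called lower in wild type, with log2 differences between −4.92 and −1.84, where 26.0% of all gene models tested were. The responses of the strains differed for 8 of the 15 in the test of that difference, a share near that of all gene models tested (59.3%). That test included the low replicate 1 of the deletion strain in glucose, and its result without this replicate is not given here. The differences not called ran from 0.19 to −4.17 log2 units, so a missing call does not show equal responses. PDE_09242, the ID after the run, was not called. It stood at 25.7, 24.1 and 24.9 FPKM in GlcNAc, against 2.9, 1290 and 1452 FPKM in glucose (log2 difference −2.91 ± 1.52, SE; limma adjusted p = 0.104). Without replicate 1 in glucose it fell by 5.72 ± 0.252 log2 units (adjusted p = 1.45e-10).

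The 9 IDs from PDE_09243 to PDE_09251 follow it and also fell, from unequal levels. PDE_09244 stood at 30.4, 26.4 and 28.8 FPKM in GlcNAc, against 387, 633 and 711 FPKM in glucose. PDE_09251 stood at 296, 332 and 339 FPKM in GlcNAc, against 836, 731 and 706 FPKM in glucose. The other 7 included 4 that stayed below 8 FPKM throughout the 6 libraries. Replicate 1 in glucose was not low for PDE_09249 to PDE_09251, where it was the highest of the 3. With a pseudocount of 5, 5 of the 9 remained called at 1 log2 unit, and leaving out replicate 1 or replicate 2 in glucose left 8 and 7 called.

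**Figure D3:**
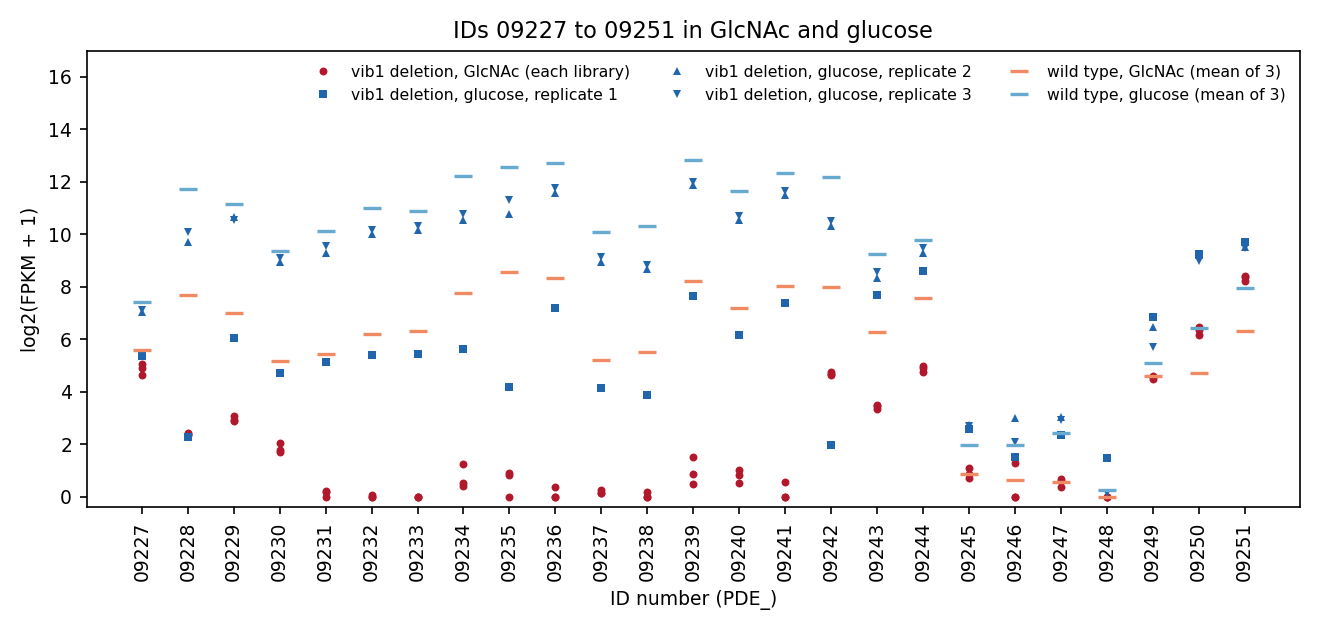
Level of IDs PDE_09227 to PDE_09251 as log2(FPKM + 1). Points are libraries of the vib1 deletion, with the 3 glucose replicates as separate symbols, and dashes are wild-type means (n = 3). Replicate 1 in glucose (squares) lies below replicates 2 and 3 from PDE_09227 to PDE_09247 and not from PDE_09248 on.

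The wild type's own response to GlcNAc was smaller, and it shared part of its genes with that of the deletion strain. These contrasts share no library, but the calls of both use the same SE per gene model, from the fit to all 18 libraries. In wild type 4992 of the 8455 gene models were called (59.0%), of which 632 (7.47%) rose and 797 (9.43%) fell by at least 1 log2 unit, together 1429 (16.9%). The root mean square log2 difference over all gene models was 1.53 in the deletion strain and 0.99 in wild type. At 1 log2 unit 236 gene models rose in both strains, 20.6% of the list of the deletion strain and 37.3% of the wild-type list; with a pseudocount of 5 they were 155. In both strains 414 fell, 34.0% of the list of the deletion strain and 51.9% of the wild-type list. In opposite directions, 68 rose in the deletion strain and fell in wild type. They were 5.94% of those that rose in the deletion strain, where 9.43% of all gene models tested fell in wild type. The reverse held for 82, of which a pseudocount of 5 left 40. They were 6.73% of those that fell in the deletion strain, where 7.47% of all gene models tested rose in wild type. Neither share was above that of all gene models tested. Across the 8455 gene models, which share libraries and do not count as replicates, the 2 sets of log2 differences had a Pearson r of 0.356 and a Spearman rho of 0.273.

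Of the 1145 gene models that rose in the deletion strain, 473 (41.3%) were called higher and 215 (18.8%) lower in wild type, against 33.0% and 26.0% of all gene models tested. Of the 1218 that fell, 652 (53.5%) were called lower and 175 (14.4%) higher in wild type. The median log2 difference of the 1145 was 1.62 in the deletion strain and 0.24 in wild type, and that of the 1218 was −1.89 and −0.59. Selection on the deletion strain enlarges its own medians.

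Some gene models moved in the same direction in both strains. PDE_01629 fell in both, to 0.75, 0.68 and 0.35 FPKM in the deletion strain in GlcNAc, against 1082, 752 and 665 FPKM in glucose (log2 difference −9.01 ± 0.168, SE; limma adjusted p = 1.39e-15). In wild type it averaged 3.55 ± 0.378 FPKM in GlcNAc and 739 ± 34.2 FPKM in glucose (SD, n = 3 each). The responses differed by −1.66 log2 units (limma adjusted p = 2.57e-05). PDE_05534 stood at 0, 0.31 and 13.98 FPKM in the deletion strain in GlcNAc, against 489, 565 and 560 FPKM in glucose (−7.64 ± 0.804, adjusted p = 8.78e-07). In wild type it stood at 0, 4.21 and 0 FPKM in GlcNAc, against 135, 170 and 128 FPKM in glucose, and the responses did not differ beyond the threshold (−1.26 ± 1.14 log2 units, adjusted p = 0.359).

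The genes named for rising in both strains had lower levels. PDE_09946 stood at 32.1, 33.0 and 36.9 FPKM in the deletion strain in GlcNAc, and at 28.0, 26.7 and 31.4 FPKM in wild type in GlcNAc. It was listed at 0 in all 6 glucose libraries of both strains (limma adjusted p = 2.29e-10 in the deletion strain and 1.61e-09 in wild type). PDE_03388 stood at 27.2, 19.9 and 25.3 FPKM in the deletion strain in GlcNAc and was listed at 0 in its 3 glucose libraries (adjusted p = 2.02e-08). In wild type it stood at 24.96, 20.75 and 17.4 FPKM in GlcNAc, against 2.49, 0 and 0.19 FPKM in glucose.

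Others answered in opposite directions. PDE_05515 rose in the deletion strain, with 155, 116 and 110 FPKM in GlcNAc, against 9.78, 9.61 and 11.5 FPKM in glucose (log2 difference 3.49 ± 0.278, SE; limma adjusted p = 3.07e-08). In wild type it fell, with 22.7, 24.3 and 26.1 FPKM in GlcNAc, against 174, 199 and 267 FPKM in glucose (−3.06 ± 0.278, adjusted p = 3.45e-07). PDE_09986 did likewise, with 31.3, 25.5 and 21.1 FPKM in GlcNAc, against 1.53, 2.25 and 2.06 FPKM in glucose in the deletion strain (log2 difference 3.19 ± 0.165, limma adjusted p = 2.1e-10). In wild type it stood at 7.47, 8.18 and 5.8 FPKM in GlcNAc, against 98.5, 92.1 and 99.1 FPKM in glucose. For both genes the strain that was high in one sugar was the strain that was low in the other.

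PDE_07409 showed the reverse pattern. It fell in the deletion strain, with 4.38, 4.41 and 9.9 FPKM in GlcNAc, against 58.8, 44.8 and 57.4 FPKM in glucose (log2 difference −2.99 ± 0.212, SE; limma adjusted p = 7.68e-09). It rose in wild type, with 363, 371 and 324 FPKM in GlcNAc, against 36.7, 46.2 and 47.4 FPKM in glucose (3.00 ± 0.212, adjusted p = 2.23e-08). In glucose the strains overlapped. PDE_05570 was listed at 0 in the deletion strain in GlcNAc and stood at 13.8, 15.8 and 12.4 FPKM in glucose, while in wild type it stood at 17.4, 16.2 and 14.3 FPKM in GlcNAc, against 0, 1.87 and 5.75 FPKM in glucose.

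The test of the difference between the strains' responses called 5014 of 8455 gene models (59.3%), 2730 (32.3%) with a response higher in the deletion strain and 2284 (27.0%) with a lower one. The balance depended on scaling: median ratios gave 2607 higher and 2458 lower, and scaling to the same total gave 3093 and 2007. By at least 1 log2 unit, 1294 (15.3%) were higher and 1189 (14.1%) lower, together 2483 (29.4%).

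**Figure D4:**
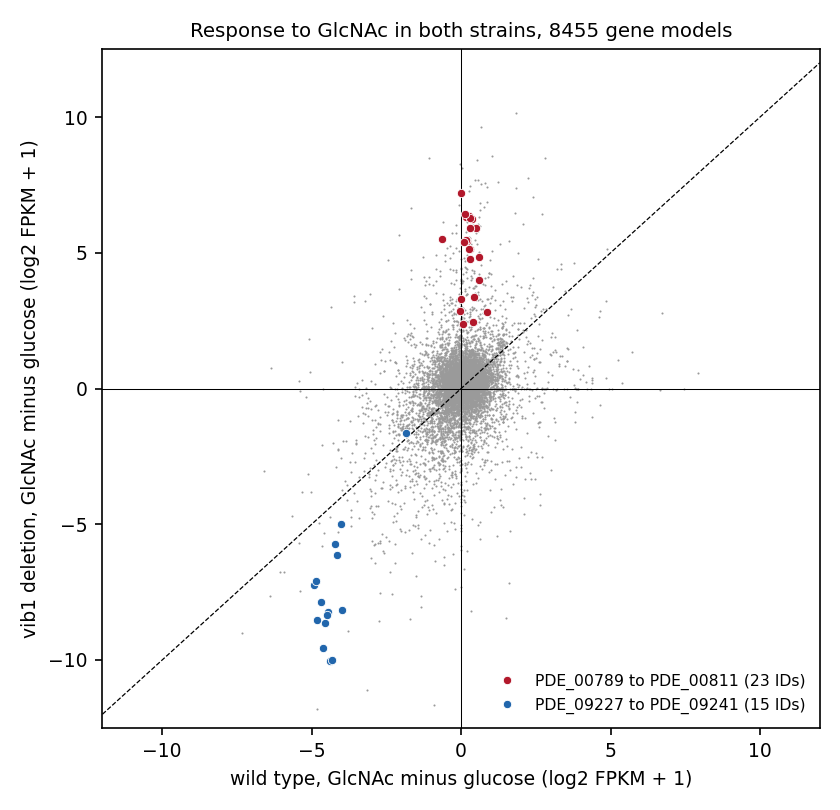
Log2 difference between GlcNAc and glucose in the vib1 deletion (vertical) against wild type (horizontal), both on the scale of log2(FPKM + 1), for 8455 gene models; the dashed line marks equal responses. The 23 IDs PDE_00789 to PDE_00811 lie high on the vertical axis and within 0.86 log2 units of 0 in wild type, and the 15 IDs PDE_09227 to PDE_09241 lie below 0 on both axes.

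The changed gene models were also followed in the other 4 groups. These entered the choice only through the filter and the SE of the shared fit. For the 1145 gene models that rose, the median log2(FPKM + 1) was 5.52 ± 0.03 in the deletion strain in GlcNAc and 3.34 ± 0.05 in glucose (SD over 3 libraries), values that the choice of genes set. In the other 4 groups it was 5.04 ± 0.02 in wild type in GlcNAc and 4.83 ± 0.05 in wild type in glucose. On bran plus cellulose it was 4.81 ± 0.03 in the deletion strain and 4.99 ± 0.08 in wild type. All 4 medians lay nearer to that of the deletion strain in GlcNAc than to its median in glucose.

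For the 1218 gene models that fell, the median was 3.52 ± 0.10 in the deletion strain in GlcNAc and 5.92 ± 0.04 in glucose. It was 4.13 ± 0.03 in wild type in GlcNAc and 4.91 ± 0.05 in wild type in glucose. On bran plus cellulose it was 4.85 ± 0.06 in the deletion strain and 4.79 ± 0.19 in wild type. The 4 groups lay between the 2 deletion groups, with wild type in GlcNAc lowest. Gene by gene these orders were weaker. Of the gene models that rose, the share whose level was nearer to the deletion mean in GlcNAc than to that in glucose was 59.7% in wild type in GlcNAc, 53.5% in wild type in glucose, 51.0% in the deletion strain on bran plus cellulose and 60.3% in wild type on bran plus cellulose. Of those that fell it was 66.1%, 49.8%, 51.1% and 53.7% in the same groups, and of all gene models tested 51.3%, 42.7%, 45.3% and 47.0%. For the gene models that fell, the medians on bran plus cellulose thus lay nearer to the glucose side while the shares leaned slightly to the GlcNAc side.

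**Figure D5:**
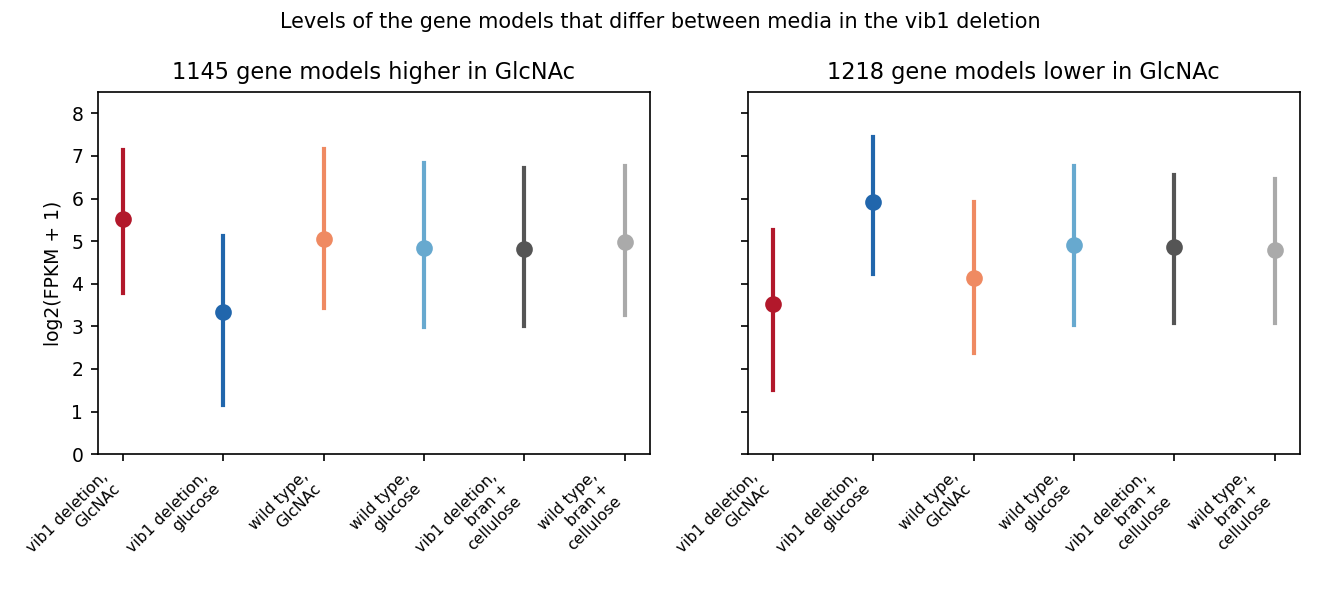
Median (points) and 25th to 75th percentile (bars) of log2(FPKM + 1) over the gene models that rose (left) and fell (right) by at least 1 log2 unit in the vib1 deletion, in all 6 groups. The medians of the other 4 groups lie between 4.81 and 5.04 on the left and between 4.13 and 4.91 on the right, within those of the deletion strain.

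Some gene models were listed at 0 in all 3 libraries of one sugar and at 10 FPKM or more in all 3 of the other. In the deletion strain 33 were of this kind with GlcNAc high and 30 with glucose high, against 8 and 12 in wild type. Of the 33, 13 were at 10 FPKM or more in all wild-type glucose libraries and 20 in all wild-type GlcNAc libraries. Of the 30, 12 and 11 were. Over the whole table of 9176, 6008 and 6061 were.

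Of the 33, 2 were listed at 0 in all libraries outside the deletion strain in GlcNAc, and of the 30, 5 in all libraries outside the deletion strain in glucose. The 2 are PDE_05165 and PDE_05535, and the 5 include PDE_01959 and PDE_02559. Over the whole table of 9176, 132 were listed at 0 in all groups other than the deletion strain on the sugars. PDE_05165 stood at 17.3, 21.6 and 46.6 FPKM and PDE_05535 at 16.7, 13.7 and 11.5 FPKM in the deletion strain in GlcNAc. Both were listed at 0 in the other 15 libraries. PDE_01959 stood at 53.6, 71.5 and 57.4 FPKM and PDE_02559 at 64.9, 47.6 and 51.6 FPKM in glucose in the deletion strain. Both were likewise listed at 0 in the other 15 libraries. Such gene models passed the filter only through the group where they were high. They were also picked for that separation, so no test of them is given. PDE_05535 carries the ID after PDE_05534, which had its high values in glucose. Overlapping or near-identical gene models could share tags, and this was not tested.

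Counted over all tested gene models, the 3 deletion libraries in GlcNAc lay above all 15 other libraries for 1892 (22.4%) and below them for 621 (7.34%). The 3 deletion libraries in glucose lay above the 15 others for 1121 (13.3%) and below them for 1011 (12%). Standing apart was not particular to the deletion strain: the 3 wild-type libraries in GlcNAc lay above the 15 others for 1083 (12.8%) and below them for 1253 (14.8%). In the remaining groups these shares ran from 1.49% to 4.73%. After rescaling by median ratios, the deletion strain in GlcNAc was above for 1280 and below for 946, and the deletion strain in glucose was above for 1077 and below for 1187. Wild type in GlcNAc was then above for 1360 and below for 1167.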

How the data were processed

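The libraries were tag libraries per the labels' protocols: NlaIII cut the cDNA made from poly(A) RNA, MmeI released a short tag beside each cut, and the tags were sequenced by Solexa. The authors deposited FPKM, per the file headers. The aligner, quantifier and genome build were not given in the sources used here. Tag libraries read few sites of a transcript, so length scaling may distort levels between genes.

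Values were analysed as log2(FPKM + 1). A test needed 1 FPKM or more in 3 or more of the 18 libraries (8455 gene models, with 721 left out). A linear model with 6 group means was fitted with limma 3.58.1 in R 4.3.3 (trend and robust, 12 residual degrees of freedom), two-sided, with Benjamini-Hochberg adjustment over all tested, and was tested on simulated data. Groups listed wholly at 0 add no spread, which can make such p-values too small. Named genes averaged 10 FPKM or more in the higher group and were the top 2 per direction in classes by log2 difference, FPKM difference, level, likeness to wild type, interaction or separation. IDs beside the runs, run members and PDE_09242 were chosen after their values were seen. Members, lists and rules were chosen with earlier results of these data known. Keyword gene lists were void without names. Plots used matplotlib 3.10.9.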

Additional observations from a re-analysis of the deposited data

Results flagged for a closer look

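The response to GlcNAc differed between the strains in the test of the difference itself for 5014 gene models, and 2483 (29.4%) were called with a size of at least 1 log2 unit. Of the 24 gene models named by rule 20 were among these, a count set by the choice, since several of the classes picked gene models for a difference between strains or from the other groups. Each was flagged because the same contrast, GlcNAc against glucose, gave another effect in the vib1 deletion than in wild type. The differences are given as the response of the deletion strain minus that of wild type, in log2 units.

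The response was higher in the deletion strain for PDE_02128 by 9.57, for PDE_04495 by 8.98, for PDE_03475 by 8.34 and for PDE_09452 by 7.55. It was higher for PDE_09986 by 6.78 and for PDE_05515 by 6.55, which rose in the deletion strain and fell in wild type. For the abundant PDE_09832 and PDE_09831 it was higher by 5.36 and 5.24.

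The response was lower in the deletion strain for PDE_06813 (−6.99), PDE_07409 (−5.99), PDE_00509 (−4.62), PDE_09377 (−1.71) and PDE_01629 (−1.66), of which PDE_07409 rose in wild type and the other 4 fell there too.

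For gene models listed at 0 in a whole group the limma adjusted p of the difference is given in place of a size. It was 2.13e-08 for PDE_05165, 3.00e-10 for PDE_05535, 7.4e-13 for PDE_01959 and 1.15e-12 for PDE_02559. It was 4.27e-10 for PDE_06802, 3.87e-07 for PDE_05570 and 3.14e-07 for PDE_02095.

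PDE_09166, which fell in both strains, differed by less than 1 log2 unit, with 0.42 ± 0.166 (SE; limma adjusted p = 0.0407). The difference was not called for PDE_09946, PDE_03388 and PDE_05534.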

How the results depend on the processing

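Each count was recomputed with other pseudocounts (0.1 and 5), other filters (none, or 10 FPKM in 3 libraries), other scalings (median-ratio, quantile, same total) and other limma settings (without trend and robust, array weights, only the groups compared). Each of the 12 GlcNAc and glucose libraries was also left out in turn. The 24 gene models named by rule kept direction and call in the deletion strain under all 23 settings, and all but 5 of the recomputed counts stayed within 1.5 times. Within that range the scaling set which direction had more calls in wild type. There 2792 were called higher and 2200 lower as reported, 2502 each with median ratios, and 2250 and 2591 with the same total. With a pseudocount of 5, 155 gene models rose by 1 log2 unit in both strains (236 as reported), 40 fell in the deletion strain and rose in wild type (82), and 5 of the 9 IDs PDE_09243 to PDE_09251 were called at that size. The filter at 10 FPKM left 3 of the 5 runs that rose and 5 of those 9 IDs. It tests fewer gene models, and for the pseudocount the cause was not tested. Leaving out a library gave 5496 to 5826 calls in the deletion strain and 5 or 6 runs that fell. Of the named gene models, leaving out a deletion library moved the fold of PDE_05534 alone by over 1.5 times, to a log2 difference of −6.92 without GlcNAc replicate 1 and −8.88 without GlcNAc replicate 3 of the deletion strain (−7.64 with all). The pseudocount moved differences against values near 0 further: that of PDE_03475 was 11.77 with 0.1 and 8.20 with 5 (10.16 as reported), and that of PDE_06813 −13.93 and −9.67 (−11.80). Fitted to the wild-type sugar libraries alone, 5 named gene models not called in wild type with all 18 were called (PDE_03475, PDE_09832, PDE_09831, PDE_06802 and PDE_02095). Replicate numbers did not pair the libraries: same-numbered deletion libraries had correlations of −0.104, −0.084 and −0.026 of their deviations, and the replicate block gave 5829 calls against 5811. Alternatives for the runs and for named gene models in wild type were chosen after seeing the data. Unknown depth leaves low values without a counting error.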

Other observations

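The shorter runs of consecutive IDs picked by the same rule are given by the range of their members' mean FPKM. Among the runs that fell in the deletion strain, the 6 IDs PDE_01191 to PDE_01196 had means of 0 to 12.2 FPKM in GlcNAc, against 63.5 to 5794 FPKM in glucose. In wild type their means were 6.34 to 552 FPKM in GlcNAc and 10.02 to 268 FPKM in glucose, where 3 of the 6 were called lower and 1 higher. The 7 IDs PDE_09756 to PDE_09762 had means of 18.4 to 186 FPKM in GlcNAc, against 183 to 7839 FPKM in glucose, and all 7 were called lower in wild type too. The 8 IDs PDE_01212 to PDE_01219 had means of 7.61 to 66.5 FPKM in GlcNAc, against 80.5 to 699 FPKM in glucose, and all 8 were called lower in wild type. The 8 IDs PDE_04022 to PDE_04029 stood at 0 to 16.2 FPKM in the deletion strain in GlcNAc, against 6.09 to 127 FPKM in glucose. Their means were at most 9.74 FPKM in wild type in GlcNAc, 8.72 FPKM in wild type in glucose and 36.1 FPKM in the deletion strain on bran plus cellulose. Of these 8, 1 was called lower in wild type.

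Among the runs that rose, the 5 IDs PDE_02138 to PDE_02142 had means of 8.13 to 40.9 FPKM in the deletion strain in GlcNAc, against 0 to 0.337 FPKM in glucose, and 14.6 to 156 FPKM in wild type in GlcNAc, against 7.97 to 102 FPKM in wild type in glucose, where 3 of the 5 were called higher in GlcNAc. The 5 IDs PDE_01429 to PDE_01433 had means of 7.87 to 36.9 FPKM in GlcNAc, against 0.0333 to 0.17 FPKM in glucose, and in wild type 2 of the 5 were called lower and none higher. The 5 IDs PDE_00965 to PDE_00969 had means of 2.6 to 313 FPKM in GlcNAc, against 0.433 to 80.4 FPKM in glucose, and 4 of the 5 were called higher and 1 lower in wild type, where their means reached 4306 FPKM in GlcNAc. Of all gene models tested, 33.0% were called higher and 26.0% lower in wild type.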
